A study of Triticum aestivum with 72 samples.

Results

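The grain serpins described here are 3 wheat genes, each read by 1 probe set (a group of short probes designed against 1 transcript) on an Affymetrix wheat array. All probe sets that the array annotation gives to LOC543382 (Serpin-Z2B), LOC543376 (listed as serpin on the array and as Serpin-Z2A in RefSeq) and LOC542985 (Serpin-Z1C) were taken. They are Ta.117.1.S1_at for Serpin-Z2B, Ta.119.1.S1_x_at for Serpin-Z2A and Ta.118.1.S1_at for Serpin-Z1C. These are 3 of the 61179 probe sets that are not array controls, and 3 of the 771 genes that the annotation names. The x in the name of the Serpin-Z2A probe set marks probes that can also match other transcripts. Bread wheat also has 3 subgenomes, each with a closely similar copy of most genes. The signal of a probe set is therefore not certain to come from 1 gene copy.

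Serpins are proteins that block proteases. A protease cuts an exposed loop of the serpin, the serpin changes shape, and the enzyme stays bound to it and loses its activity. In wheat endosperm, the starch-storing tissue of the grain, serpins are abundant albumins of the maturing grain, and several carry loop sequences that resemble the glutamine-rich repeats of wheat storage proteins. They are relatives of barley protein Z, a grain protein that persists through malting and brewing into beer. Serpin-Z2B, Serpin-Z2A and Serpin-Z1C belong to this family and are known as inhibitors of serine proteases of the chymotrypsin type.

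Transcripts were measured in developing seeds of 36 lines of the bread wheat mapping population RL4452 × AC Domain, taken 5 days after anthesis from field-grown plants, with 2 arrays a line and 72 in all. The groups are the lines themselves. All have the same 2 parents, no line was treated, and neither parent is among the arrays. The labels number the arrays as biological replicates 1 and 3 in 35 lines, and as 2 and 3 in line H9. A sample was ground whole seed, so fewer cells of a type and less RNA per cell cannot be told apart.

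The arrays of some lines went against their labels. Over 104 probe sets that fall into 2 separate levels, the 2 arrays of 12 lines (A40, A91, B11, C25, D15, DH91, E5, F36, F38a, G32, H5 and J15) were on the same level in under 70% of cases. In 22 lines neither array was most like its labelled partner over the 10% most variable probe sets, which leaves 14 lines. Results on lines are therefore given for all 36 lines, and the main serpin results also without those 12 or those 22. Array medians lay between 5.32 and 5.45 on the log2 scale, and the arrays were hybridised on 12 days. The labelled tissue was checked against marker genes. BMY1, a beta-amylase, AGP-S, a small subunit of the enzyme that makes ADP-glucose for starch, and Wx-A1, the granule-bound synthase of amylose, stand for starchy endosperm, and had mean log2 intensities of 12.70, 11.19 and 9.03. Gliadin and low-molecular-weight glutenin genes were also taken as endosperm markers, and these read far lower. The storage protein list that holds them had 11 probe sets, with means from 3.17 to 6.67 and a median of 3.84. PsbO and PsbP, of the oxygen-evolving complex in green tissue, were at 12.53 and 12.25, and PER1, a peroxiredoxin of embryo and aleurone, was at 6.22. Raftin genes, of anther and pollen, have 4 probe sets, with means from 3.55 to 5.73.

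All 3 serpin probe sets were dim in every array. Serpin-Z2B ran from 3.60 in replicate 3 of DH91 through a median of 3.93 to 4.30 in replicate 3 of F29 on the log2 scale, with a mean of 3.92 ± 0.15 (SD, n = 72 arrays). As deposited, these are intensities of 12.2, 15.3 and 19.7. Serpin-Z2A ran from 3.65 in replicate 3 of B65 through a median of 3.96 to 4.32 in replicate 3 of F38a, with a mean of 3.97 ± 0.15 (SD, n = 72). Its intensities were 12.6, 15.6 and 20.0 at those points. Serpin-Z1C ran from 3.44 in replicate 1 of A40 through a median of 3.76 to 4.01 in replicate 3 of H10, with a mean of 3.76 ± 0.12 (SD, n = 72). Its intensities were 10.8, 13.6 and 16.2. No array stood apart from the rest for any of them, and the span from the lowest to the highest array was under 1 log2 unit in each.

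The arrays carry 23 control probe sets for artificial tag sequences and a bacterial gene (the Tag and Trp controls), which are no wheat transcripts and were used here as a measure of background. The sources used here do not say that any of these transcripts was added to the samples. Their mean log2 intensities ran from 3.58 to 5.11 with a median of 3.98. The serpin means lay among them, with 14 controls above Serpin-Z2B, 13 above Serpin-Z2A and 17 above Serpin-Z1C. In all 72 arrays each serpin was dimmer than the brightest of these controls. This bound is loose, since the highest control mean, 5.11, is not far below the median of 5.38 over all probe sets. The difference between a serpin and the median control of the same array ran from -0.45 to 0.36 with a median of -0.06 for Serpin-Z2B. It ran from -0.30 to 0.44 with a median of -0.03 for Serpin-Z2A, and from -0.71 to 0.09 with a median of -0.23 for Serpin-Z1C. The hybridisation controls, 27 probe sets for transcripts added to every sample, had means from 7.01 to 13.44. Among all probe sets that are not controls, the serpin means stood at percentiles 18.6, 20.1 and 13.6 in the same order. Probes differ in how strongly they bind, so these positions describe the probe sets and do not rank amounts of transcript. Serpin transcript above background was not detectable with these probe sets at 5 days after anthesis, and a level that gives so little signal is not shown to be absent.

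**Figure D1:**
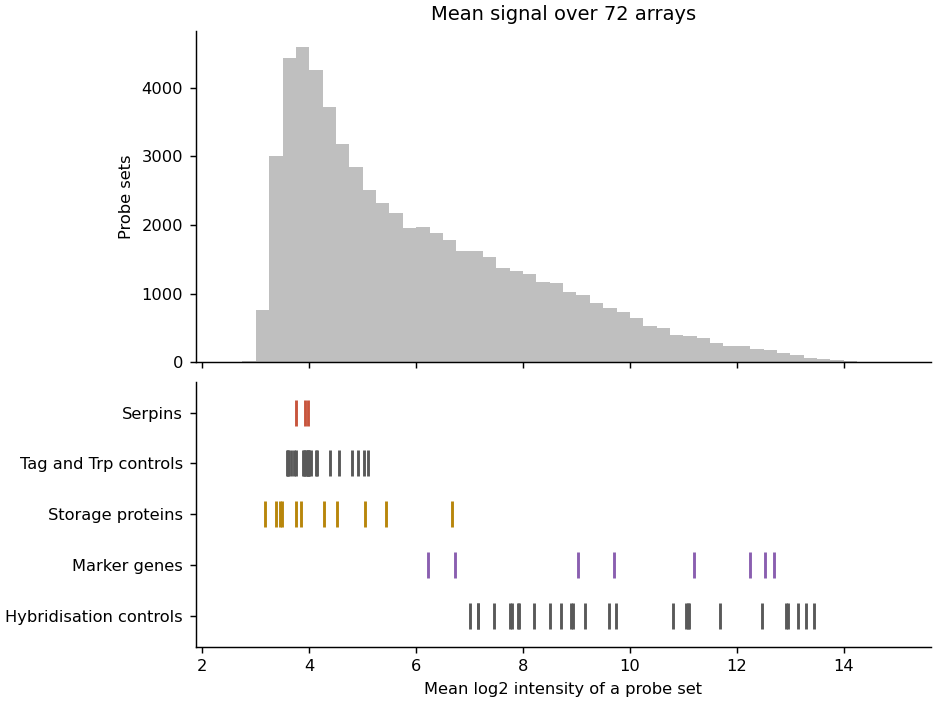
The upper panel counts probe sets by mean log2 intensity over 72 arrays, without array controls. In the lower panel each tick is the mean of 1 probe set, for the 3 serpins, the 23 Tag and Trp controls, 11 storage protein probe sets, 8 marker genes and 27 hybridisation controls. The serpins, between 3.76 and 3.97, sit inside the span of the Tag and Trp controls.

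The spread of the serpins over arrays was small as well. The SD of 0.15 of Serpin-Z2B was at percentile 19.3 of the 9065 probe sets whose mean lay within 0.25 log2 units of its own. For Serpin-Z2A the percentile was 20.0 of 8936 probe sets, and for Serpin-Z1C it was 4.04 of 9035. Of the 23 Tag and Trp controls, 20 had a larger SD than Serpin-Z2B, 16 a larger SD than Serpin-Z2A and 20 a larger SD than Serpin-Z1C.

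The study's title sets out to find transcripts whose level differs between lines, so the first comparison asked whether a serpin differed between lines by more than the 2 arrays of a line did. No serpin passed this test. The largest spread of line means was that of Serpin-Z2B, from 3.70 in F44 to 4.18 in F29. The test was limma's moderated F-test over 36 line means, with Benjamini-Hochberg adjustment over all 61179 probe sets. It called 0 of 3 serpins at an adjusted p under 0.05, against 2.54% of all probe sets. At an unadjusted p under 0.05 it counted 1 of 3, Serpin-Z2B, against 13.9% of all probe sets. Among the 15294 probe sets with the lowest means, to which all 3 serpins belong, these shares were 0.471% and 4.93%.

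For Serpin-Z2B the 2 arrays of F44, the lowest line, read 3.68 and 3.72, and those of F29, the highest, read 4.06 and 4.30. The next lowest line was DH91, with 3.84 and 3.60, and the next highest F38b, with 4.22 and 4.02. DH91 is among the 12 lines whose arrays disagree, and F44, DH91 and F38b are among the 22 unmatched by nearest array. The arrays of the 2 lowest and the 2 highest lines did not overlap, although these lines were picked here by their rank. The 12 lowest lines had means from 3.70 to 3.89, the middle 12 from 3.89 to 3.97 and the 12 highest from 3.99 to 4.18. In order, the lowest 12 were F44, DH91, A91, G13, C22, B11, A77, H5, C10, A35, H10 and DH95. The highest 12 were F82, B33, C25, A81, H8, F36, H23, G32, G30, B68, F38b and F29. Neighbours in the order of the 36 lines were at most 0.058 apart, so the order shows no step, and sorting itself keeps such gaps small. The unadjusted 95% half-width for a difference between 2 lines was 0.242, which the range of 0.477 exceeds, but the end lines were picked from 36 by their rank and are no test. In 11 lines both arrays were above the median of all arrays, in 11 both were below it, and in 14 they fell on either side. The largest difference between the arrays of 1 line was 0.503, in H9, which is wider than the whole range of line means.

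The share of the variance of Serpin-Z2B that lay between lines, an intraclass correlation that can fall below 0, was 0.333 (95% interval 0.0122 to 0.592). The median over all probe sets was 0.0641. The same share was below that of Serpin-Z2B in each of the 23 Tag and Trp controls, whose values ran from -0.259 to 0.207. The moderated F of Serpin-Z2B was 1.73, with an adjusted p of 0.357 in limma's test. Without the 12 lines whose arrays disagree the share was 0.274 and the adjusted p 0.555, and without the 22 lines they were 0.212 and 0.635.

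Serpin-Z2A gave line means from 3.77 in E5, with arrays at 3.71 and 3.83, to 4.14 in C31, with arrays at 4.09 and 4.19. The next lines inward were A91 with 3.71 and 3.88, and DH91 with 4.09 and 4.16. E5, A91 and DH91 are among the 12 lines whose arrays disagree, and these and C31 are among the 22 unmatched by nearest array. The 12 lowest lines had means from 3.77 to 3.91, the middle 12 from 3.91 to 4.02 and the 12 highest from 4.04 to 4.14. From the low end, the lowest 12 were E5, A91, A88, A35, C10, C22, F48, G13, H5, B33, J15 and F38b. The highest 12, in rising order, were F44, H8, D39, B68, A10, F36, H23, A40, C25, F38a, DH91 and C31. The arrays of a line often lay far apart, most of all in B65, where they read 3.65 and 4.19, the lowest array of all and one near the top. Both arrays were above the median in 10 lines, both below it in 10, and on either side in 16. Neighbouring lines were at most 0.036 apart, and the range of line means was 0.373, beside an unadjusted 95% half-width of 0.311 for 2 lines not picked by rank.

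The share of variance between lines was -0.065 for Serpin-Z2A (95% interval -0.379 to 0.264). Its F was 0.83, with an adjusted p of 0.872 in limma's test. As an estimate, a share below 0 means that arrays of 1 line were less alike than arrays of different lines, but the interval includes 0. The share was -0.263 without the 12 lines and -0.529 without the 22.

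Serpin-Z1C had the smallest spread. Its line means went from 3.57 in A40, with arrays at 3.44 and 3.71, to 3.92 in B11, with arrays at 3.99 and 3.85. A40 and B11 are both among the 12 lines whose arrays disagree, and so is G32, the next lowest line, with 3.62 and 3.63. The next highest was H23, with 3.92 and 3.84. A40, G32, H23 and B11 are all among the 22 lines unmatched by nearest array. The 12 lowest lines had means from 3.57 to 3.71, the middle 12 from 3.72 to 3.78 and the 12 highest from 3.79 to 3.92. The order of the lowest 12 was A40, G32, C25, A81, A10, DH91, B65, B68, H8, C31, G13 and G30, and that of the highest 12 was A88, D15, F82, E5, A35, B33, A77, DH95, F48, H10, H23 and B11. In 20 lines the arrays fell on either side of the median, and in 8 each both were above or both below. The largest difference within a line was 0.376, in F82, and the range of line means was 0.345. Neighbouring lines were at most 0.050 apart, and the range of line means exceeds the unadjusted 95% half-width of 0.254 for 2 lines not picked by rank.

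The share of variance between lines was -0.097 for Serpin-Z1C (95% interval -0.406 to 0.234), the F was 0.73 and the adjusted p 0.919. Without the 12 lines the share was -0.196, and without the 22 it was -0.179. The line ranges of the serpins, 0.477, 0.373 and 0.345, stand beside a median of 0.718 over all probe sets and 0.479 over the 23 Tag and Trp controls. Of those controls, 12 had a wider range of line means than Serpin-Z2B, 19 a wider one than Serpin-Z2A and 20 a wider one than Serpin-Z1C.

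**Figure D2:**
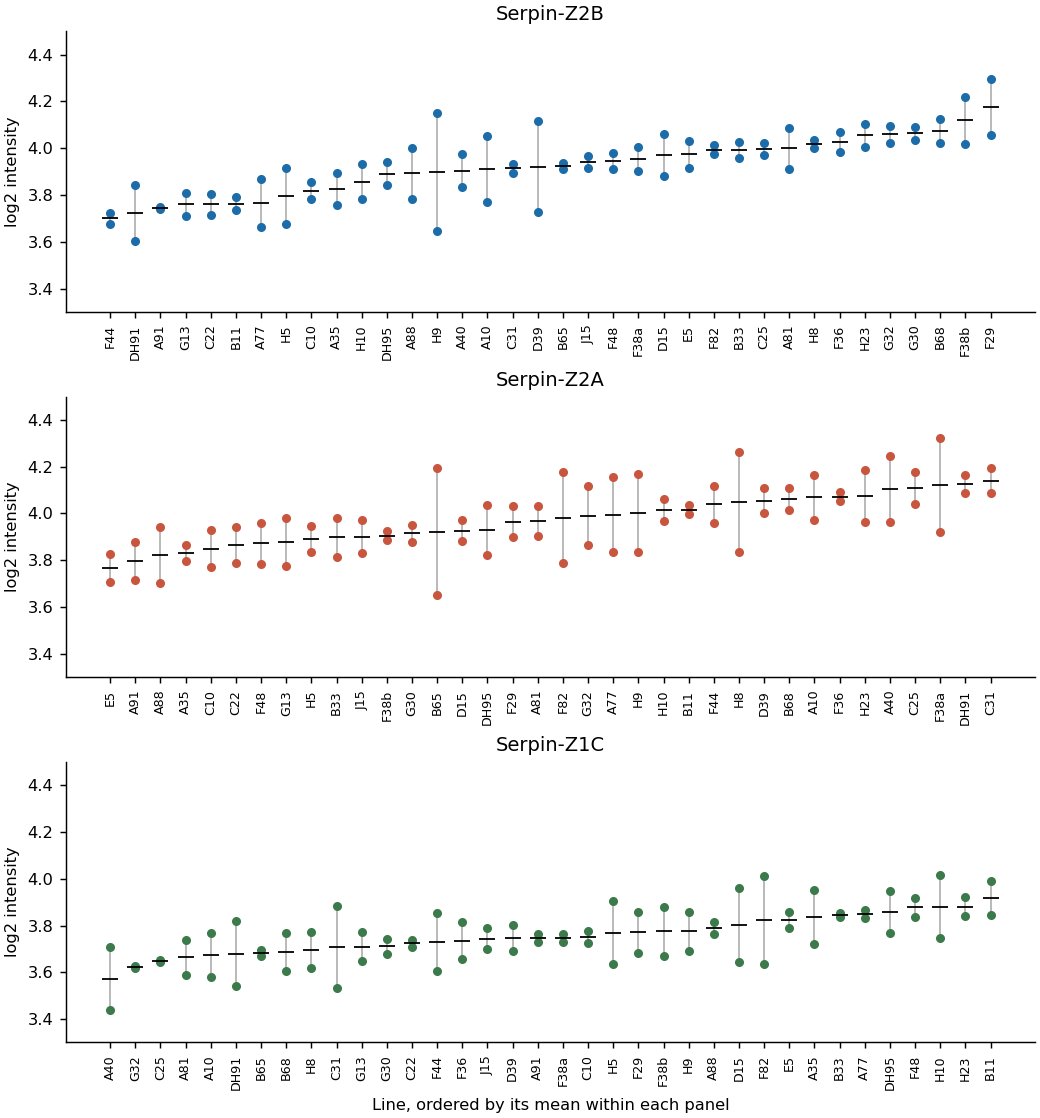
Each panel shows 1 serpin, with log2 intensity on the vertical axis and the 36 lines in the order of their means on the horizontal axis. Points are the 2 arrays of a line, grey bars join them and black dashes are line means. Line means climb with no step, and in H9 for Serpin-Z2B and B65 for Serpin-Z2A the 2 arrays are more than 0.5 apart.

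The marker genes, run through the same test, include some that did differ between lines. Wx-A1 had a share of variance between lines of 0.812 (95% interval 0.664 to 0.899) and an adjusted p of 2.64e-07 in limma's test. BMY1 had a share of 0.492 and an adjusted p of 0.0338, and PsbP had 0.466 and 0.0438. The other 5 markers did not pass, with adjusted p from 0.0869 for RPL9, a ribosomal protein, to 0.368 for PER1. The interval of Serpin-Z2B overlaps those of BMY1 and PsbP, and whether its share differs from theirs was not tested.

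**Figure D3:**
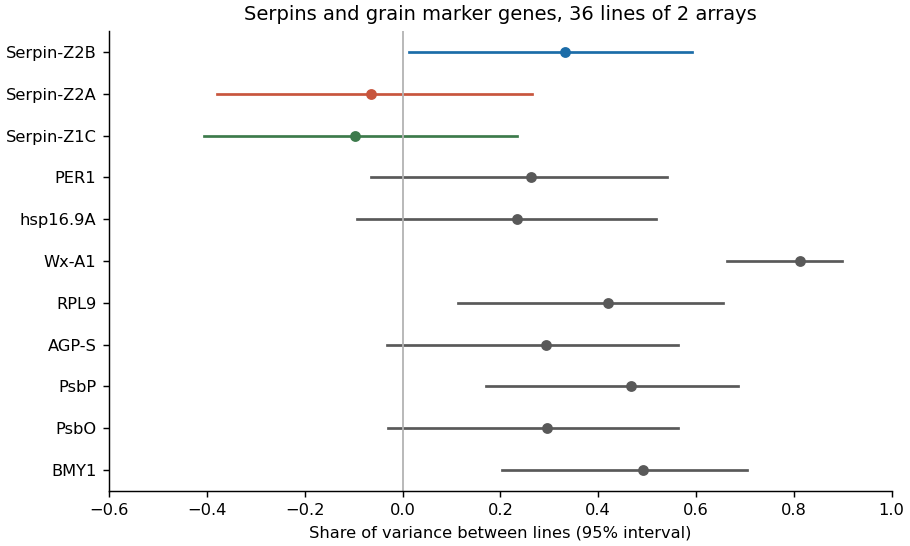
Points are the share of variance between lines for the 3 serpins and the 8 marker genes, and bars are 95% intervals from the F distribution over 36 lines of 2 arrays. The bars of Serpin-Z2A and Serpin-Z1C span 0, that of Serpin-Z2B starts at 0.0122, and that of Wx-A1 starts at 0.664.

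The second comparison set replicate 3 against replicate 1 within the 35 lines that have both. No serpin passed this test either. Serpin-Z2B averaged 3.91 in replicate 1 and 3.93 in replicate 3, a difference of 0.023 (SE 0.028, 95% interval -0.034 to 0.079), and it was higher in replicate 3 in 21 of 35 lines (limma, adjusted p = 0.716). Serpin-Z2A averaged 3.97 in both, a difference of 0.0044 (SE 0.038, interval -0.072 to 0.081) with 19 of 35 lines higher (limma, adjusted p = 0.969). Serpin-Z1C averaged 3.76 and 3.75, a difference of -0.0070 (SE 0.032, interval -0.072 to 0.059) with 17 of 35 lines higher (limma, adjusted p = 0.940). All 3 intervals stay within 0.1 log2 units of 0. The test called 0 of 3 serpins after adjustment and 0 of 3 at an unadjusted p under 0.05. Over all probe sets 2.6% were called, of which 0.616% of those tested were higher and 1.98% lower in replicate 3, and 18.5% passed without adjustment. With hybridisation day as a block it called 0 probe sets in all, and 0 serpins. Most days held arrays of only 1 of the 2 replicate numbers, and only 2 lines had both arrays on 1 day. That fit can therefore hardly separate replicate from day, and nothing is concluded from its count of 0.

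**Figure D4:**
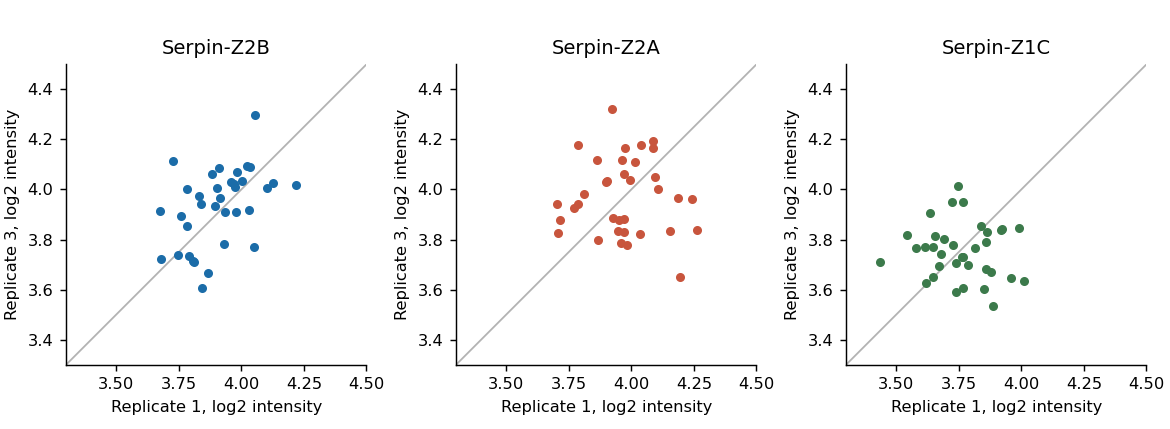
Each point is 1 of 35 lines, with log2 intensity in replicate 1 on the horizontal axis and in replicate 3 on the vertical axis, and the grey line marks equal values. Points of Serpin-Z2B lean along the line, with a share of variance between lines of 0.333, and those of Serpin-Z2A and Serpin-Z1C form clouds with shares of -0.065 and -0.097.

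Means per hybridisation day are given as values beside these results. Over the 12 days, 1 of which holds 1 array, day means ran from 3.84 to 4.01 for Serpin-Z2B, from 3.90 to 4.18 for Serpin-Z2A and from 3.64 to 3.88 for Serpin-Z1C. The highest day mean of Serpin-Z2B and of Serpin-Z2A, and the lowest of Serpin-Z1C, is that of the day with 1 array. Among the other days the ranges were 3.84 to 4.01, 3.90 to 4.09 and 3.69 to 3.88. The SD within those days ran from 0.060 to 0.239 for Serpin-Z2B, from 0.037 to 0.194 for Serpin-Z2A and from 0.058 to 0.160 for Serpin-Z1C. The part of the day in these values was not tested.

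The serpins were then set against each other over the 36 line means, since members of a gene family may vary together. No pair passed the test after adjustment. Serpin-Z2B and Serpin-Z2A had a Pearson's r of 0.140 and a Spearman's rho of 0.173 (permutation test, adjusted p = 0.530 and 0.468 over 3 pairs). Serpin-Z2B and Serpin-Z1C had an r of -0.108 and a rho of -0.114 (adjusted p = 0.530 and 0.507). Serpin-Z2A and Serpin-Z1C had an r of -0.341 and a rho of -0.351 (permutation p = 0.042 and adjusted p = 0.125 for r, adjusted p = 0.108 for rho). The r of that pair was -0.337 without A40 and B11, the 2 lines farthest from the median, and -0.274 over the differences between the arrays of a line. Within the 8 days that hold at least 6 arrays it ran from -0.659 to -0.105. Without the 12 lines it was -0.214, and without the 22 it was 0.052. It passed after adjustment without line H23 (r = -0.408, adjusted p = 0.0476) and after quantile normalisation (r = -0.444, adjusted p = 0.0216).

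The places of lines and arrays in the 3 orders are given as a description. Their counts were not compared with those that 3 unrelated orders would give. Line G13 was among the 12 lowest for every serpin, H23 among the 12 highest and H9 among the middle 12. All 3 serpins were above their medians in 7 arrays and none was in 10, while 23 arrays had 1 and 32 had 2.

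Each serpin was also set against the 8 marker genes, over 36 line means and 24 relations. None passed after adjustment, and the smallest unadjusted p of r was that of Serpin-Z1C with PsbP (r = -0.304, rho = -0.281, permutation p = 0.070 and adjusted p = 0.874 for r). Without the 2 lines farthest from the median of PsbP, B33 and C31, that r was -0.342, yet over the differences between the arrays of a line it was 0.456. Serpin-Z1C with Wx-A1 came next (r = -0.292, rho = -0.328, permutation p = 0.083 and adjusted p = 0.874 for r). Its rho had the smallest unadjusted p for rho (permutation p = 0.0499, adjusted p = 0.765). With the endosperm markers BMY1 and AGP-S the r of Serpin-Z2B was -0.048 and -0.075, that of Serpin-Z2A -0.124 and -0.171, and that of Serpin-Z1C 0.080 and 0.131. With hsp16.9A, a small heat shock protein whose level varied from 3.78 to 13.57 over the arrays, r was 0.089, 0.126 and -0.052 in the same order. The ratio of 3′ to 5′ signal in the wheat control genes, a measure of RNA quality, was taken as a mean log2 ratio. Over the arrays it ran from 0.509 to 1.79 on that log2 scale. With this ratio r was -0.136, 0.090 and -0.165 (permutation test, adjusted p = 0.601 for each over 3 relations). After quantile normalisation the last became -0.400, with an adjusted p of 0.0487.

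**Figure D5:**
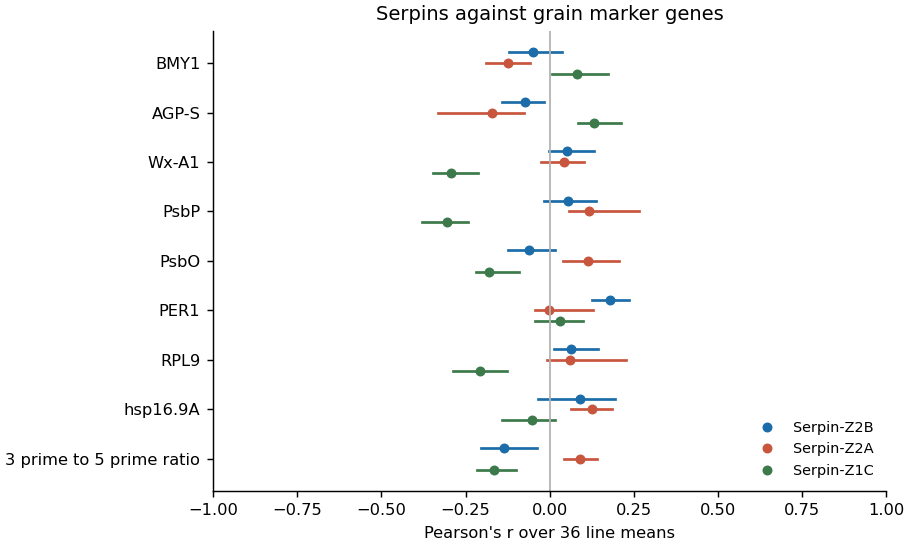
Points are Pearson's r over 36 line means between each serpin and each of 8 marker genes or the 3′ to 5′ ratio, and bars span the values found on dropping 1 line at a time. All points lie between -0.304 and 0.180, and none passed after adjustment.

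Named genes whose line means were most like those of a serpin were listed by Pearson's r over 36 lines, among 1270 other probe sets with a gene symbol, as a description. For Serpin-Z2B the highest were LOC542793 at 0.481 and LOC543412, named GSTZ1, a glutathione transferase, at 0.416. LOC543293 (Rab15) at 0.393, LOC780574 at 0.381 and LOC542976 at 0.336 followed. The most negative were LOC780642 at -0.489, LOC100037592 at -0.410 and LOC606349 at -0.400. Over the differences between the arrays of a line, 5 of these 8 genes had an r of the opposite sign: GSTZ1 (-0.399), Rab15 (-0.216), LOC542976 (-0.105), LOC780642 (0.083) and LOC100037592 (0.150).

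For Serpin-Z2A the highest were LOC100125735 and LOC543051, both at 0.468, LOC543409 at 0.430, LOC732704 at 0.422 and LOC542873 at 0.398. The most negative were LOC780635 at -0.445, LOC543176 at -0.412 and LOC542911 at -0.357. Over the differences between arrays of a line, 2 of these 8, LOC543176 (0.070) and LOC542911 (0.016), had the opposite sign. For Serpin-Z1C the highest were LOC606351 at 0.518, LOC543260, a beta-tubulin, at 0.500, LOC543426 at 0.452, LOC542864 at 0.450 and LOC100049018, the large Rubisco subunit rbcl, at 0.448. The most negative were LOC100125712 at -0.533, LOC606370 at -0.524 and LOC606390 at -0.513. The opposite sign was found for 5 of these 8 over the differences between arrays of a line, namely all 3 negative ones, LOC543426 (-0.316) and rbcl (-0.018). Of the 24 genes in these lists 1, LOC542911, passed the line test (limma, adjusted p = 0.0199), against 2.54% of all probe sets. An r of 0.5 or more in size was reached by 0 of 1270 probe sets for Serpin-Z2B and for Serpin-Z2A, and by 6 for Serpin-Z1C.

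Lists of other genes of the grain were matched by symbol and synonym. Only 101 of the 771 named genes have a synonym, so the lists can miss genes that are on the array. The lists of other protease and amylase inhibitors and of proteases, the enzymes that serpins act on, matched 0 named probe sets beside the 3 serpins. Storage and grain texture proteins, which accumulate in the same endosperm, had 11 probe sets of 6 genes, with means from 3.17 to 6.67 and a median of 3.84. In limma's line test 0 of the 11 passed, with 0 at an unadjusted p under 0.05, against 2.54% and 13.9% of all probe sets. Most of the 11 were dim, and among the 15294 probe sets with the lowest means these shares were 0.471% and 4.93%. The gamma-gliadin gene LOC543214 had the smallest adjusted p, 0.438, with line means that spanned 0.657. The low-molecular-weight glutenin LOC543213 followed at 0.629, then the alpha-type gliadin LOC543212 at 0.669. LOC543385, another gene of the Gli-2 family, had the largest at 0.915.

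Starch and sugar enzymes had 7 probe sets of 5 genes, with means from 7.43 to 12.70, and 2 of the 7 passed the line test, Wx-A1 and BMY1, with 4 at an unadjusted p under 0.05, against 2.54% and 13.9% of all probe sets. The fructan exohydrolases 1-FEH (LOC543441) and 6-FEH (LOC780575), which break down fructans, had adjusted p of 0.112 and 0.648. Of 3 defence probe sets, for a thionin (LOC543413) and for PR5 (LOC543292), 0 passed, with adjusted p from 0.631 to 0.823 and 0 at an unadjusted p under 0.05. Of the 4 raftin probe sets 0 passed, with adjusted p up to 0.987 and 0 at an unadjusted p under 0.05. Between replicates 0 probe sets of any list passed in limma's test, with 2 at an unadjusted p under 0.05, 1 storage protein and 1 raftin. Over all probe sets the shares in that test were 2.6% and 18.5%. The median F was 0.897 for storage proteins, 1.85 for starch and sugar enzymes and 1.13 for all probe sets, beside 1.73, 0.83 and 0.73 for the serpins.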

How the data were processed

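The deposited table holds 1 intensity per probe set and array on a linear scale, from 6.02 to 29610. The authors made these intensities with RMA, per the submitters' processing notes, which name no version. RMA corrects background, normalises between arrays and combines probes, and its values are usually given as log2. Here the values were linear and were turned into log2 values, with a pseudocount of 0. A further record per array gave the hybridisation day. No counts exist for arrays, and their number limits the precision. RMA sets no detection call, and values near background are compressed toward each other, which can shrink differences of dim probe sets.

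Samples were grouped by line from the sample titles. Of 61290 probe sets, 111 are array controls and did not enter the tests, and 61179 were fitted with no filter on low values. Annotation gives 1 symbol to 1273 probe sets, and several to none of them. Of the 771 named genes 770 were found in the supplied RefSeq table (assembly IWGSC CS RefSeq v2.1), which gave synonyms for 101. The array's build is not named, so no coordinates are printed. Tests ran in limma 3.58.1 under R 4.3.3, as a moderated F-test over 36 line means and as replicate 3 minus replicate 1 with line as a block, both with Benjamini-Hochberg adjustment. Correlations over line means used 100000 permutations, two-sided, in Python 3.11.15 with scipy 1.17.1, adjusted within families of 3, 24 and 3 relations. The seeds of a line's 2 arrays are called biological replicates in the labels. Named were the serpins, the 8 markers, per serpin the 5 genes of highest and the 3 of lowest r, and per list the 3 smallest and the largest adjusted p. The serpins and all lists were chosen with earlier results of these data known. Whether replicate numbers pair arrays across lines was checked over the 595 pairs of 35 lines: profiles of replicate 3 minus 1 correlated from -0.663 to 0.625, above 0.1 in 229 pairs, so the numbers were not treated as a pairing. Alternatives were quantile normalisation, median centring, a pseudocount of 16, a filter on dim probe sets, an intensity trend, day or 3′ to 5′ ratio in the fit, a block, rank correlation, and leaving out lines or arrays.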

Additional observations from a re-analysis of the deposited data

How the results depend on the processing

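No alternative that was run changed the count of serpins called, which was 0 in both limma tests. The filter on dim probe sets left out all 3 serpins and so gave no value for them. Leaving out each array or line in turn also gave 0 to 0 serpins in both tests. For Serpin-Z2B the adjusted p of the line test ran from 0.155 to 0.489 when each array was left out and from 0.169 to 0.635 over the other alternatives. For Serpin-Z2A these ran from 0.665 to 0.927 and from 0.566 to 0.991, and for Serpin-Z1C from 0.829 to 0.955 and from 0.867 to 0.965. The share of variance between lines ran from 0.294 to 0.473 for Serpin-Z2B, from -0.122 to 0.079 for Serpin-Z2A and from -0.159 to 0.014 for Serpin-Z1C when each array was left out. For Serpin-Z2A it was -0.529 without the 22 lines unmatched by nearest array, and the cause was not tested beyond the smaller number of lines. The fit with the replicate number as a block also left out line H9, which has no replicate 1. In it 1679 probe sets differed between lines against 1553, and Serpin-Z2B had a limma adjusted p of 0.169 and a share of 0.450. The block and the loss of H9, where the arrays of Serpin-Z2B differed most, were not tested apart. That fit changed no call of a serpin.

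The count of all probe sets that differed between lines was 4465 without the 22 lines, 2438 without the 12 lines whose arrays disagree (chosen after seeing the data), and 1220 to 3075 when each array was left out, with 2571 without replicate 1 of B33 and 3075 without replicate 3 of B65. The count between replicates, 1590, was 0 with hybridisation day as a block, 483 with the 3′ to 5′ ratio in the fit, 6 without the 22 lines, 805 without the 12 lines, 965 with no line block and 695 to 2874 when each line was left out, highest without H5 and lowest without F82. It moved by over 1.5 times on leaving out any of 13 lines, up without G13 or H5 and down without A35, A77, A91, B11, C22, C31, F44, F48, F82, H8 or H23. Day and replicate number largely overlap, so the fit with the day block can hardly separate them. The cause of these shifts was not tested.

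Quantile normalisation gave 1 passing pair of serpins, Serpin-Z2A with Serpin-Z1C (r = -0.444), and 1 passing relation with the 3′ to 5′ ratio, that of Serpin-Z1C (r = -0.400). Leaving out each line gave 0 to 1 passing pairs, 1 without H23, and 0 to 0 relations with marker genes or with the ratio. The serpins' signal at the level of control probes limits all of these values.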

Other observations

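Another wheat serpin gene, LOC100037548 (WSZ1b), is on the array with 2 probe sets. It was chosen here after its values were seen, and it belongs to none of the lists because its synonyms did not match the search terms. Ta.1314.1.S1_at had a mean log2 intensity of 4.80 ± 0.16 (SD, n = 72 arrays) and ran from 4.48 to 5.33. In 70 of 72 arrays it was dimmer than the brightest Tag or Trp control. Ta.1314.1.S1_s_at, whose suffix marks probes shared between transcripts, had a mean of 3.68 ± 0.16 and ran from 3.20 to 4.15. Their shares of variance between lines were 0.203 (95% interval -0.127 to 0.494) and 0.304 (95% interval -0.020 to 0.571). Neither passed limma's line test, with adjusted p of 0.548 and 0.378, and the count at an unadjusted threshold of 0.05 was also 0 of 2. Over all probe sets these shares were 2.54% and 13.9%. Replicate 3 minus replicate 1 was 0.024 (SE 0.035) and 0.018 (SE 0.033), with limma adjusted p of 0.766 and 0.820.

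In the lines whose arrays disagree, some arrays matched those of other lines over the 104 probe sets with 2 levels. Replicate 3 of B11 was on the same level as replicate 3 of F82 in 100% of these probe sets, and so was replicate 3 of F38a with replicate 3 of F38b. Replicate 3 of H5 was on the level of replicate 1 of G32 in 99.0%. The 2 arrays labelled B11 shared a level in 45.2%, and those labelled H5 in 46.2%.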
